A study of Mus musculus with 6 samples.

Results

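The regulators of calcineurin, Rcan1, Rcan2 and Rcan3, were examined in male and female mouse liver. They are 3 of the 24197 genes in the authors' deposited table and were taken as the rows whose symbol matches the family names. The family was picked from values of this same comparison, namely the direction of the sex difference in gene body FPKM (fragments scaled to feature length and library size, here counted over exons) and in intron FPKM. Those differences are therefore given as a description, with no test of the members.

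RCAN proteins bind calcineurin, the phosphatase that is switched on by calcium and calmodulin. Active calcineurin removes phosphates from the NFAT transcription factors, which then enter the nucleus, and RCAN proteins can inhibit the enzyme. The internal promoter of Rcan1 is itself a known NFAT target, so that the gene takes part in feedback on its regulator. Rcan2 was identified in human fibroblasts as a gene that responds to thyroid hormone. In hepatocytes calcineurin is known to act on CRTC2, a coactivator of the genes of glucose production that glucagon turns on.

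The libraries came from whole liver of intact CD-1 mice, an outbred stock. Each sex had 3 libraries of poly-A selected, strand-specific RNA. By the legend of the deposited table a male pool held 17 livers and a female pool 12, within the range of 12 to 17 that the labels give for all pools. Males were aged 7 to 9 weeks and females 7 to 11 weeks. Sex cannot be told apart from the number of livers pooled or from this small gap in age. Nothing in the labels says whether a liver went into more than 1 pool. The female libraries held 28358105, 38215906 and 41206357 reads and the male libraries 28415535, 37727874 and 42673908 reads. The table gives the authors' mean per sex, and whole reads per library were worked back from those means for the genes given below by pool. Which of these totals belongs to which pool number is unknown, so pools are named as the smallest, middle and largest library of their sex.

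All 3 genes had lower exonic levels in male than in female liver, and Rcan2 had the largest difference. Rcan2 also had a higher intronic level in male liver, the opposite of its exons. The intronic share of Rcan1 reads differed between the sexes by less than the spread between pools, and Rcan3 had too few intronic reads to compare. At an authors' adjusted p under 0.05 the exonic contrast called Rcan2 and Rcan3, where 10.05% of the 17997 genes above 0 were called, 4.61% as higher in males and 5.44% as higher in females. The intronic contrast called Rcan2, where 3.16% of 16569 genes were called, 1.76% as higher in males and 1.40% as higher in females. These calls belong to the contrast that selected the genes, and nothing is read from them.

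Rcan2 was the family member with the largest sex difference in exons. Its exonic level in female liver was 1.83 FPKM in the smallest library, 1.91 FPKM in the middle one and 1.81 FPKM in the largest. In male liver it was 0.684 FPKM in the smallest library, 0.715 FPKM in the middle one and 0.717 FPKM in the largest. The sexes did not overlap, and the lowest female pool was 2.53 times the highest male pool. With 3 pools per sex, lack of overlap in exons also occurred in genes that were not called. Examples are Ppp3cb and Nfatc1, whose lowest female pool was 1.09 and 1.03 times the highest male pool. The share of all genes without overlap is unknown, since values by pool exist for 20 genes only. The Rcan2 means were 1.85 ± 0.0542 FPKM (SD, n = 3) in females and 0.705 ± 0.0182 FPKM (SD, n = 3) in males. These values rest on 770 exonic reads in females and 297 in males. The authors' deposited table gives a 2.52-fold higher value in females after their normalization, with an adjusted p of 2.42e-22.

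The introns of Rcan2 went the other way. Their level was 0.00528, 0.00616 and 0.00311 FPKM in the female pools, in order of rising library total. It was 0.0178, 0.0245 and 0.0173 FPKM in the male pools, in the same order. Every male pool was above every female pool, and no female pool held more than 55 intronic reads. The mean was 0.00485 ± 0.00157 FPKM (SD, n = 3) in females and 0.0199 ± 0.00401 FPKM (SD, n = 3) in males, and the lowest male pool was 2.82 times the highest female pool. The authors' deposited table lists the intron value as 4.51-fold higher in males, with an adjusted p of 9.34e-18. The interval counted as intronic was 233809 bases long, against 3857 exonic bases, which is why the intron FPKM is small although the reads are not few.

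**Figure D1:**
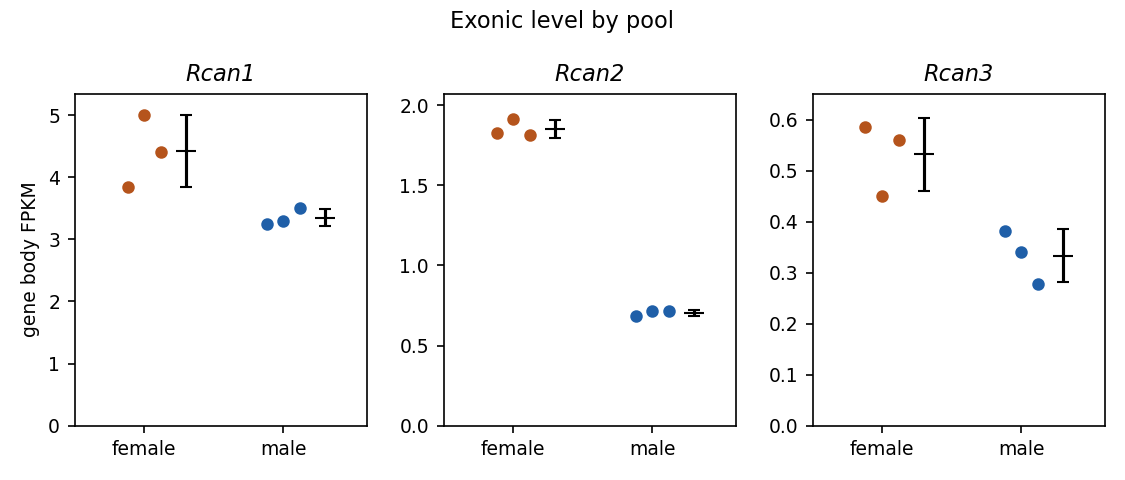
Exonic (gene body) FPKM of Rcan1, Rcan2 and Rcan3 in each female and male liver pool, 1 point per pool, with the mean and SD (n = 3) beside the points. The female pools lie above the male pools for each gene, by the widest margin for Rcan2 (1.81 to 1.91 against 0.684 to 0.717 FPKM).

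**Figure D2:**
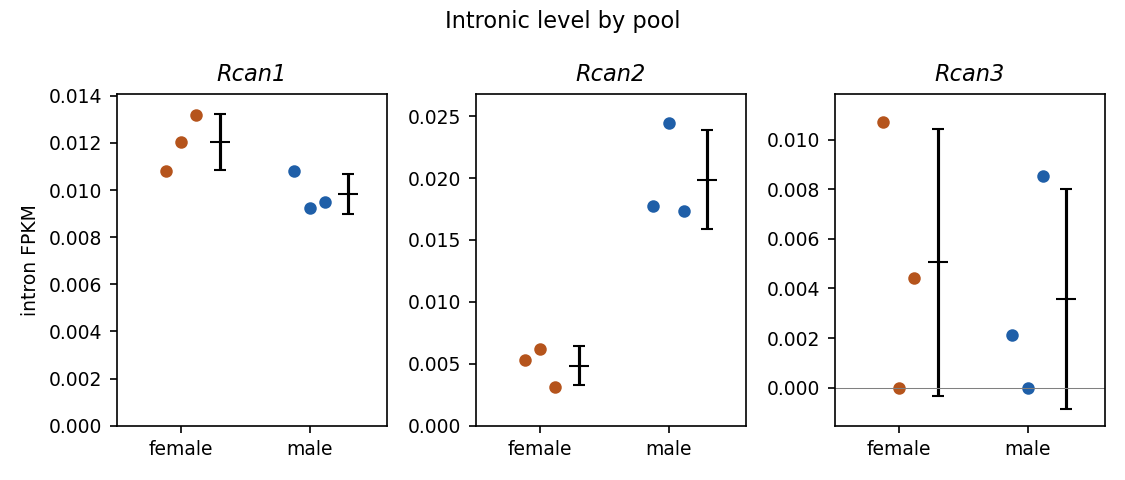
Intron FPKM of the same genes in each pool, with the mean and SD (n = 3) beside the points. Rcan2 is higher in all male pools, while the values of Rcan3 range from 0 upward in both sexes.

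As a consequence of these opposite differences, the make-up of Rcan2 reads differed between the sexes. Introns held 14.9%, 16.3% and 9.43% of the gene's reads in the female pools, in order of rising library total. In the male pools they held 61.1%, 67.5% and 59.5%, likewise in order of rising total. The mean share was 13.5% ± 3.63 (SD, n = 3) in females and 62.7% ± 4.24 (SD, n = 3) in males, with no overlap. Introns thus held fewer reads than exons in each female pool, 120 against 770 in all, and more in each male pool, 507 against 297. The catalytic calcineurin subunit gene Ppp3cc also had more intronic than exonic reads in male liver, with an intron share of 54.4% ± 3.27 (SD, n = 3), below the male Rcan2 range. Its share in female liver was 53.0% ± 2.96 (SD, n = 3), and its sexes overlapped. Slc25a27, a gene near Rcan2 that is described below, had a male share as high as that of Rcan2. It was 63.1% ± 7.41 (SD, n = 3) in males and 51.0% ± 2.39 (SD, n = 3) in females, without overlap. The male Slc25a27 share rests on 59 intronic and 36 exonic reads.

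**Figure D3:**
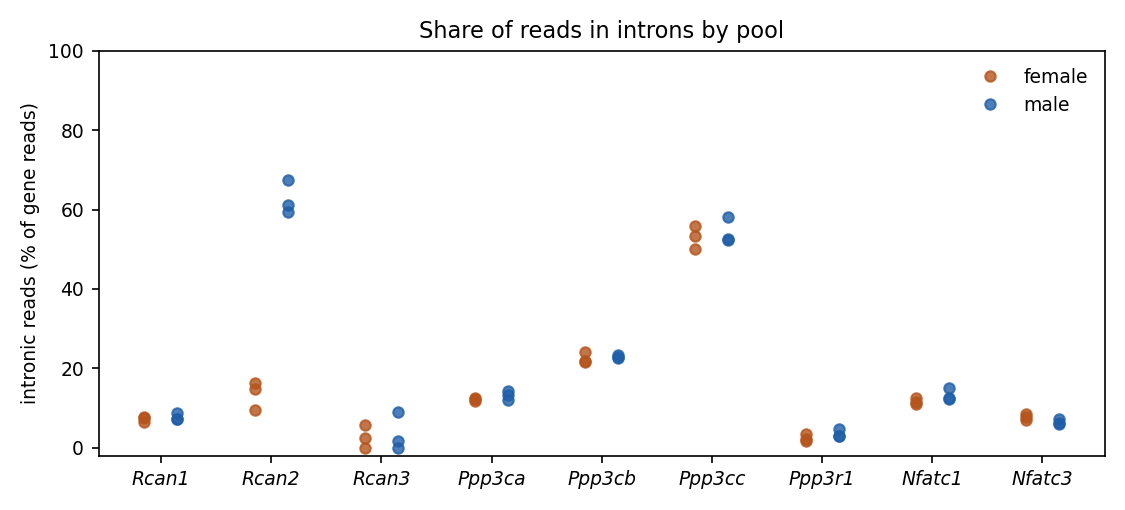
Intronic reads as a percentage of all reads of a gene (exonic plus intronic) for the RCAN genes, 4 calcineurin subunit genes and 2 NFAT genes, 1 point per pool. The ranges of Rcan2 lie far apart, 9.43% to 16.3% in female and 59.5% to 67.5% in male pools.

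Opposite directions in exons and introns were common among small differences and rare among called ones. Of 10302 genes with at least 0.5 FPKM in exons and some intronic signal in both sexes, 3384 had opposite signs (32.8%). Of 409 genes called in both readouts, 3 had opposite signs (0.733%). These were Rcan2, Ugt1a6b and Ugt1a9, of which the latter pair, glucuronosyltransferase genes, were higher in male exons and in female introns. How reads were split within the Ugt1a locus, whose members have common last exons, is uncertain. The gap between the intron and exon log2 ratios (male over female) was 3.51 for Rcan2, where the median gap over the 10302 genes was -0.01 and the 99th percentile 1.08. The family was picked from these same values, so they describe Rcan2 and support nothing further.

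**Figure D4:**
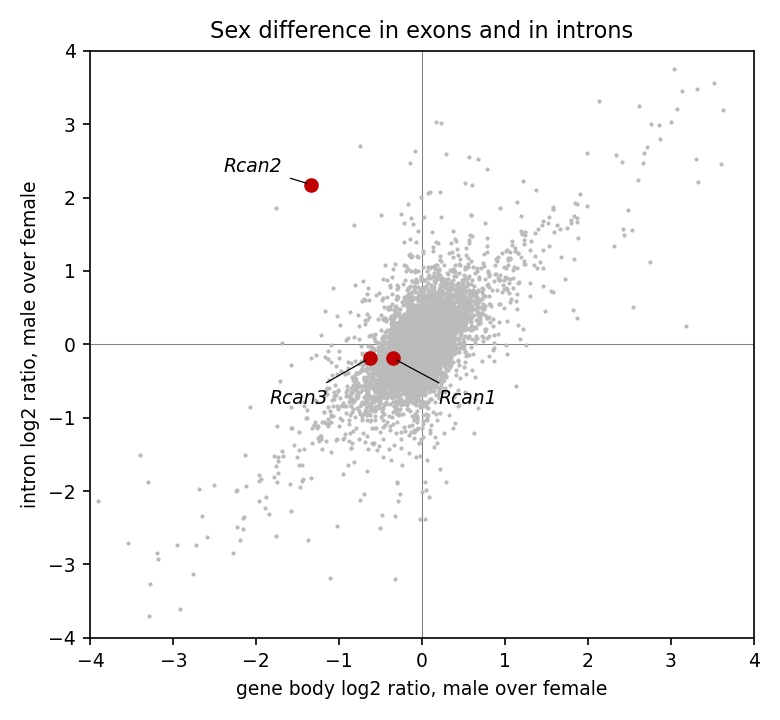
Authors' log2 ratio of male over female in introns against that in exons, 1 grey point per gene for the 10302 genes with both readouts, with the RCAN genes in red (Rcan3, below 0.5 FPKM, is added). Rcan2 lies in the upper left field, at -1.34 in exons and 2.17 in introns, Rcan1 and Rcan3 lie within the main cloud, and 42 genes fall outside the plotted range.

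Measured per length, Rcan2 introns had 0.262% of the exonic FPKM in females and 2.82% in males. The medians over the 10302 genes were 1.62% and 1.52%. The female value was above that of 5.94% of genes and the male value above that of 68.3% of genes, so the female value lay near the low end of the range and the male value inside it.

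Rcan2 lies on chromosome 17 (43938800 to 44176465, build mm9) and is listed with 4 transcripts. In GENCODE M21 on the later build GRCm38, the 2 longer forms start near the upstream end and have an intron of 181.3 kb after their second exon. The 2 shorter forms start inside that intron, about 151 kb downstream, and join the longer ones at the third exon from the end. The exonic FPKM pools all 4 forms, and the deposited values do not say which form was present or where in the introns the reads lay. GENCODE lists 1 other gene within Rcan2, Gm24532, a 286-base RNA on the opposite strand, which has no row in the deposited table. Whether the authors' counting used strand is not given in the sources used here.

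**Figure D5:**
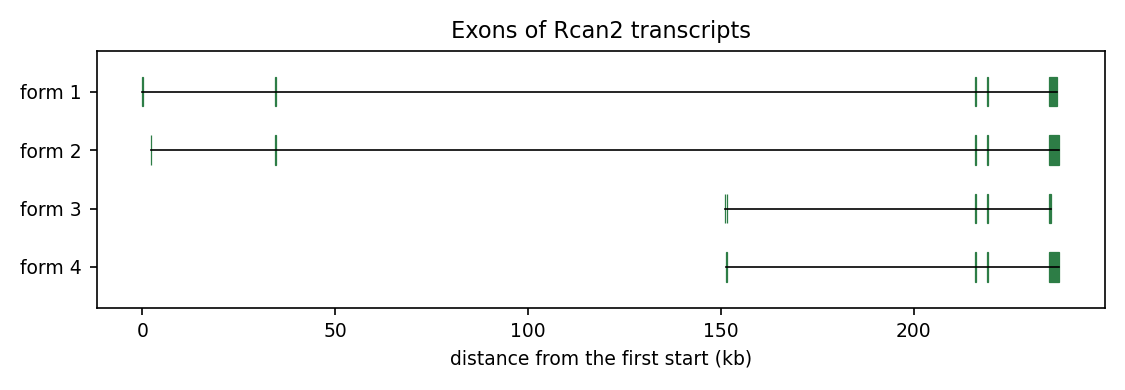
Exons (boxes) and introns (lines) of the 4 Rcan2 transcripts of the deposited table, as GENCODE M21 places them on GRCm38, by distance from the first start in kb. The shorter forms start within the longest intron of the longer ones, at about 151 kb.

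Because exonic counts add up forms with separate starts, sequences at an upstream and an internal start of Rcan2 and of Rcan1 are shown. Each runs from 250 bases before to 50 after that start (RefSeq, build GRCm38.p6, on the gene's strand). Not every start was covered: in GENCODE M21 Rcan2 forms also start at positions 43804003 and 43953115, for which no window was made. Capitals mark GGAAA or its reverse complement TTTCC, the core letters of NFAT sites. The upstream and the internal Rcan2 windows are chr17:43801601-43801900 and chr17:43952749-43953048, both on the plus strand, and have no such run.
Rcan2 upstream start: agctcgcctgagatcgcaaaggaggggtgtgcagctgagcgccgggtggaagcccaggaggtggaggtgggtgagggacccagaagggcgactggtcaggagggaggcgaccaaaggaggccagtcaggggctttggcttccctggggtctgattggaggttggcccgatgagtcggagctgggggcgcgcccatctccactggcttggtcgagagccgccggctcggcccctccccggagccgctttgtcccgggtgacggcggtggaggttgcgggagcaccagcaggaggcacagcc
Rcan2 internal start: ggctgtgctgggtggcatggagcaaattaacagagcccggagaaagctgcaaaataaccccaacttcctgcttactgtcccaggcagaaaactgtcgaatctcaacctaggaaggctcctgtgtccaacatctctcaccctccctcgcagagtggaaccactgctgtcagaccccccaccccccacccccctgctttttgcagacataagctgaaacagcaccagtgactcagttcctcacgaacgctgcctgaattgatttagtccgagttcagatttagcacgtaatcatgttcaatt

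The Rcan1 windows are chr16:92466120-92466419 at the upstream start and chr16:92400029-92400328 at the internal start, both on the minus strand. The upstream window holds no GGAAA and the internal one holds 3.
Rcan1 upstream start: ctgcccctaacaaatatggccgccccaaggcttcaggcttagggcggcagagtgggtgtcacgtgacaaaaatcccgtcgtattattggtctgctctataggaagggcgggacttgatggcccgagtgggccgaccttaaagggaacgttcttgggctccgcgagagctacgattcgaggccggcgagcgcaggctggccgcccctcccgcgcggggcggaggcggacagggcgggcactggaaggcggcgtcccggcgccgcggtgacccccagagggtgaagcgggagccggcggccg
Rcan1 internal start: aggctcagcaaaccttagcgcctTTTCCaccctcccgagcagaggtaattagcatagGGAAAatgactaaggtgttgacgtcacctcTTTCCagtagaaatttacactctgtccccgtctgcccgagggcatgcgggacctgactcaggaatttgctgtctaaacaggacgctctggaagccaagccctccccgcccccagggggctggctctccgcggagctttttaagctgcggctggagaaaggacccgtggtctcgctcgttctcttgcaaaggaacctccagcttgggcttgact

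Of 32851 mouse promoter windows of this length, 61.3% hold GGAAA on either strand, so its presence is ordinary. The Rcan3 window holds 1, and another Rcan2 window, just upstream of the first one shown, holds 2. The STAT5 letters TTCNNNGAA, which 8.30% of all windows hold on either strand, are in none of the 6 windows of the family. A match describes letters and not binding, and a missing match says only that the letters are not in this window.

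Rcan1 was the most abundant member. Its exonic level was 3.84, 5.002 and 4.41 FPKM in the smallest, middle and largest female library. In the male libraries, in the same order, it was 3.24, 3.30 and 3.50 FPKM. The ranges lay close together without overlap, with the lowest female pool 1.10 times the highest male pool, and the female pools were spread more widely. The means were 4.42 ± 0.579 FPKM (SD, n = 3) in females and 3.34 ± 0.136 FPKM (SD, n = 3) in males, from 1220 and 926 exonic reads. The authors' deposited table gives Rcan1 a 1.28-fold higher value in females with an adjusted p of 0.0579, above the threshold.

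The introns of Rcan1 were slightly higher in females, the direction of its exons. Their mean was 0.0120 ± 0.00119 FPKM (SD, n = 3) in females and 0.00984 ± 0.000839 FPKM (SD, n = 3) in males. In female pools they held 22, 33 and 39 reads, against 22, 25 and 29 in male pools, in order of rising total. By intron FPKM every female pool was above every male pool, but the nearest pools of the 2 sexes differed only by a factor of 1.002. Introns took 7.19% ± 0.735 (SD, n = 3) of the gene's reads in females and 7.70% ± 0.810 (SD, n = 3) in males, a difference smaller than the spread between pools. The authors' deposited table gives Rcan1 introns an adjusted p of 1. Rcan1 lies on chromosome 16 (92392196 to 92466414, build mm9) and is listed with 2 transcripts, of 74219 and 8128 bases, which the exonic value adds up. GENCODE M21 also lists Gm46555, an antisense RNA gene, within the Rcan1 span, and it has no row in the deposited table.

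Rcan3 was the least abundant member. Its exonic level was 0.585, 0.450 and 0.561 FPKM in the female pools and 0.382, 0.340 and 0.278 FPKM in the male pools, in order of rising total. The ranges did not overlap, with the lowest female pool 1.18 times the highest male pool. The means were 0.532 ± 0.0722 FPKM (SD, n = 3) in females and 0.333 ± 0.0526 FPKM (SD, n = 3) in males, from 288 and 180 reads. The authors' deposited table gives Rcan3 a 1.55-fold higher value in females with an adjusted p of 0.0155.

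Rcan3 introns were almost empty. Female pools had 5, 0 and 3 intronic reads, and male pools had 1, 0 and 6, so that no direction can be read at this depth. Without 1 pool the Rcan3 intron log2 ratio lay anywhere from -1.92 to 1.00. Rcan3 lies on chromosome 4 (134968224 to 134989720, build mm9) and is listed with 1 transcript of 5062 exonic bases. Mir700, a microRNA gene at the edge of its last exon, was the only gene in the table that overlapped a family member, and was listed at 0.787 FPKM in females and 0.755 FPKM in males (authors' adjusted p of 1). Poly-A libraries do not measure the mature microRNA.

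The order of exonic levels was Rcan1, Rcan2, Rcan3 in both sexes, and neighbours in that order did not overlap among pools of a sex. In female liver Rcan1 had 2.39 times the mean FPKM of Rcan2, and Rcan2 had 3.48 times that of Rcan3. In male liver the ratios were 4.74 and 2.11. The lowest Rcan2 pool was 3.10 times the highest Rcan3 pool in female liver and 1.79 times in male liver. By mean level over the sexes Rcan1 stood above 70.9% of the genes above 0, Rcan2 above 51.2% and Rcan3 above 37.7%.

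Of the genes beside Rcan2, one shared the direction of its exons and one did not. Cyp39a1, a hydroxylase of oxysterols, lies 50419 bases to its lower-coordinate side and had 6.05 ± 0.747 FPKM (SD, n = 3) in females and 1.61 ± 0.290 FPKM (SD, n = 3) in males. Its introns were also higher in females, with 142 reads against 26, unlike those of Rcan2. Enpp5, which encodes a phosphodiesterase-like membrane protein, lies 39329 bases to the other side and was higher in males (7.44 ± 0.569 against 5.72 ± 0.195 FPKM, SD, n = 3), at an authors' adjusted p of 0.000777. Slc25a27, a mitochondrial carrier gene on the far side of Cyp39a1, was chosen after its values were seen. Slc25a27 was higher in females in exons, 0.463 ± 0.105 against 0.118 ± 0.0392 FPKM (SD, n = 3), and in introns, 140 reads against 59. Of the 7 genes above 0 within 250 kb of Rcan2, 2 were called higher in females (Cyp39a1 and Slc25a27) and 1 higher in males (Enpp5). The other 4 were not called (Clic5, Enpp4, Pla2g7 and 1700071M16Rik). Within the same distance no gene was called beside Rcan1, and 1 of 8 beside Rcan3. Of all genes above 0, 10.05% were called, 5.44% as higher in females. Nothing is read from counts over so few genes.

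Beside Rcan3, Ncmap, a myelin-associated protein gene, was 2.98-fold higher in females by the authors' deposited table (adjusted p 4.45e-11). Ncmap introns, at 114 reads in females and 48 in males, had the same direction. Nipal3, a transporter-like gene on the other side of Rcan3, did not pass (1.14 against 1.23 FPKM, female first, authors' adjusted p of 0.821). Both nearest rows beside Rcan1, Gm29805 and 2410124H12Rik, were listed at 0 in both sexes.

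The enzyme that the family regulates showed no called sex difference. Of the 5 calcineurin subunit genes, 4 were measured and none was called, and the testis-type regulatory subunit Ppp3r2 was listed at 0. Of all genes above 0, 10.05% were called, so no call among 4 is ordinary. Ppp3ca, the alpha catalytic subunit, had 3.61 ± 0.257 FPKM (SD, n = 3) in females and 3.45 ± 0.359 FPKM (SD, n = 3) in males. Ppp3cb, the beta catalytic subunit, had 4.39 ± 0.0451 and 3.80 ± 0.225 FPKM (SD, n = 3 per sex, female first). Its pools did not overlap, although the authors' adjusted p was 0.57. Ppp3cc, the gamma catalytic subunit, had 0.995 ± 0.0824 and 0.938 ± 0.112 FPKM, and Ppp3r1, the regulatory subunit, had 8.43 ± 0.595 and 8.05 ± 0.530 FPKM (SD, n = 3 per sex, female first). In each sex the mean of Rcan1 was near that of the catalytic subunits Ppp3ca and Ppp3cb, and that of Rcan3 was below all measured subunits.

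The calmodulin genes Calm2 and Calm3, upstream of calcineurin, and the NFAT factors, downstream of it, were not called either. With 10.05% of all genes above 0 called, nothing is read from a lack of calls in lists as short as those given here. Calm2 and Calm3 had 53.5 and 12.3 FPKM in females and 49.3 and 11.7 FPKM in males (authors' means, authors' adjusted p of 1 for each). Of the 5 NFAT factors Nfatc3 was the most abundant, at 4.31 ± 0.139 and 4.21 ± 0.214 FPKM (SD, n = 3 per sex, female first). Nfatc1 had 0.763 and 0.692 FPKM and Nfat5, the factor of osmotic stress that does not depend on calcineurin, 1.97 and 1.81 FPKM (authors' means, female first, authors' adjusted p of 1 for both). Nfatc2 and Nfatc4 were below 0.1 FPKM in both sexes. Of the 11 other inhibitors and anchors, 9 were measured and none was called, among them Ppia, the target of cyclosporin (324 against 355 FPKM), and Chp1, a calcineurin B-like protein (30.6 against 30.8 FPKM, authors' means, female first).

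Of 10 genes listed for the phosphorylation of RCAN or NFAT proteins, 1 was called, where 10.05% of all genes above 0 were. The list holds kinases and Tab2, a kinase-binding protein. Dyrk2, a kinase that opposes NFAT entry into the nucleus, was higher in males, at 3.91 ± 0.434 FPKM (SD, n = 3) in females and 5.34 ± 0.267 FPKM (SD, n = 3) in males, a 1.41-fold difference by the authors' deposited table (adjusted p 0.000932). Its introns did not share it, with 91 reads in females and 89 in males. Csnk1a1 and Tab2 did not pass (22.3 against 19.6 and 11.8 against 11.8 FPKM, authors' means, female first). Of 12 calcineurin substrates 1 was called (8.33%). Crtc3, a coactivator of CREB, had 1.37 ± 0.0226 FPKM (SD, n = 3) in females and 1.87 ± 0.293 FPKM (SD, n = 3) in males, for which the authors' adjusted p was 0.00426. Crtc2, the family member known from glucose production, did not pass (5.37 against 5.09 FPKM), nor did Dnm1l, the enzyme of mitochondrial fission (7.15 against 7.09 FPKM, authors' means, female first).

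Genes of calcium entry, stores and export were called for 3 of 21 (14.3%), all higher in females. Of all genes above 0, 10.05% were called, 5.44% as higher in females. With so few genes called, nothing is read from their common direction. Atp2b2, a calcium pump of the plasma membrane, had 0.441 ± 0.0646 FPKM (SD, n = 3) in females and 0.183 ± 0.0373 FPKM (SD, n = 3) in males, for which the authors' adjusted p was 9.11e-08. Itpr3, a calcium release channel, had 0.212 ± 0.0221 and 0.115 ± 0.0161 FPKM (SD, n = 3 per sex, female first). Mcu, the pore of the mitochondrial calcium uniporter, had 5.71 ± 0.520 and 4.05 ± 0.301 FPKM (SD, n = 3 per sex, female first). Atp2a2, the main calcium pump of the endoplasmic reticulum, did not pass (23.0 against 20.7 FPKM, authors' means, female first), nor did Micu2, a gatekeeper of the uniporter (8.66 against 9.12 FPKM).

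Of 9 thyroid hormone receptors and targets, 1 was called. Klf9, a zinc finger factor, was higher in males, at 9.15 ± 1.04 FPKM (SD, n = 3) in females and 12.3 ± 0.546 FPKM (SD, n = 3) in males. Thrsp, a lipogenic protein gene, and Me1, malic enzyme, did not pass (109 against 127 and 25.5 against 29.2 FPKM, authors' means, female first). In introns Me1 was the only gene of these lists that was called, higher in males, for which the authors' adjusted p was 0.00293. Of all 16569 genes with intronic signal 3.16% were called in introns, and nothing is read from this lone call. Over all these lists 6 of 72 measured genes were called in exons (8.33%), 3 in each direction, near the 10.05% of all genes. The median log2 ratio, male over female, was 0.02 over the 54 list members with at least 0.5 FPKM and 0.01 over all 10936 such genes.

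Whole liver holds several cell types, and in such bulk samples fewer cells of a type and less RNA per cell cannot be told apart. All 6 hepatocyte markers were at high levels, and they differed in direction. Alb (albumin; 19411 against 12608 FPKM, female first) and Cps1 were called higher in females, Apoa1 (1991 against 3081 FPKM) and Serpina1c (580.1 against 894.8 FPKM) were called higher in males, and Ttr and Tat were not called. Their summed male level was 77.1% of the female, a sum made up mostly of Alb. By log2 ratio, male over female, 3 of the 6 lay above 0 and 3 below. Of all genes above 0, 10.05% were called, 5.44% as higher in females and 4.61% as higher in males. The 5 Kupffer cell markers in the table (Clec4f, Cd5l, Marco, Vsig4 and Emr1) were all called higher in females, and their summed level in male liver was 62.6% of the female. The 7 endothelial markers had a summed male level of 84.3% of the female with none called, and 2 of 6 stellate and 2 of 6 lymphocyte markers were called higher in females, at 83.1% and 55.1%. Erythroid markers were called higher in males for 3 of 4 (summed male level 185.1% of the female), cholangiocyte markers for 1 of 5 (148.5%), and the pancreas markers for 1 of the 4 above 0. The cholangiocyte sum was made up mostly of Spp1, the 1 called (8.05 against 12.8 FPKM, female first). Nothing is read from a lone call in a list. Of the 5 muscle markers Acta1 and Ckm were listed at 0, and Mylpf (0.361 against 0.218 FPKM), Myh11 (0.231 against 0.201 FPKM) and Tnnt3 (0 against 0.0183 FPKM, female first) were not called. The 3 RCAN genes had lower means in males. So did the summed levels of the hepatocyte, Kupffer, endothelial, stellate, lymphocyte and muscle lists. The erythroid, cholangiocyte and pancreas sums went the other way. The hepatocyte sum followed Alb, and the muscle list was low. The part of any of these cell types in the exonic differences was not tested.

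Genes most like each member were sought over the 4 group means (exons and introns, female and male) on a log2 scale with a pseudocount of 0.01 FPKM. That pseudocount is above the intron FPKM of Rcan2 in females (0.00485) and of Rcan3 in both sexes (0.00505 and 0.00357, female first). Intron differences therefore count for less in these distances. The distances also use the values by which the family was picked, so they are a description only. The nearest to Rcan1 were Gda, Nceh1 and Qk, at distances of 0.18, 0.18 and 0.24. The nearest to Rcan3 were Lgr5, Nxn and Rgs12, at 0.33, 0.34 and 0.36. No gene came as near to Rcan2, for which G6pdx, Ifit1 and Eif4e3 stood at 0.77, 0.85 and 0.87. In these 3 genes exons were called higher in females by 1.59-fold, 2.10-fold and 2.24-fold in the authors' deposited table, and their introns were not called (authors' adjusted p of 1 for each).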

How the data were processed

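The deposited table holds no values per pool. Per the file headers the authors gave the mean FPKM by sex, the male to female ratio after normalization, a signed fold score derived from it and an adjusted p-value, for gene bodies and for introns only. The submitters' processing notes list TopHat2, featureCounts, edgeR and build mm9, without versions or roles. How the p-value was adjusted is not given in the sources used here. Both the members and the gene lists were chosen with earlier results of these data known.

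Reads per pool were worked back from the means. Small RNA genes with a lone read in 1 pool gave the 3 library totals of each sex, since the same total recurred over 19 to 37 genes. For a gene, exonic lengths from 200 to 12000 bases were tried, with the intron length set to the gene's span less the exons, and whole reads in 3 pools were sought that give all 4 deposited means to their last printed decimal. For each RCAN gene exactly 1 length and 1 set of reads did so. On simulated data 40 of 40 genes were recovered. The simulation used the same library totals and length rule, so it could not test these. Its genes had fewer reads and shorter exons than some of the genes given by pool. This was done for 21 genes, of which 20 had a unique solution and Nfat5 had none; all other genes have the authors' means only. Values by pool are not normalized further; the authors' ratio lies above the ratio of mean FPKM by a median factor of 1.04 in exons and 1.09 in introns.

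Calls are the authors' adjusted p under 0.05 over the whole table. Coordinates are printed as counted from 1. The named genes are the members, all subunits, NFAT factors and calmodulins, up to 3 called genes per direction and 2 uncalled genes of highest mean of each other list, the nearest neighbours, and 3 genes of closest values per member; a gene that this rule names is not reported here. GENCODE M21 and RefSeq on GRCm38 served for transcript forms and promoter sequences only, with no conversion between builds. Software was numba 0.67.0, matplotlib 3.10.9, pandas 2.3.3 and numpy 2.4.6, under Python 3.11.15. SDs cover the spread between pools, and reads without molecular identifiers are not independent molecules.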

Additional observations from a re-analysis of the deposited data

How the results depend on the processing

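The direction of Rcan1, Rcan2 and Rcan3 in exons held under all pseudocounts, scalings and omitted pools tried. Leaving out a pool was added after seeing the data, since it needed the reads worked back. Exonic log2 ratios (male over female) without 1 pool then ranged from -0.44 to -0.25 for Rcan1, from -1.35 to -1.31 for Rcan2 and from -0.74 to -0.52 for Rcan3. In introns they ranged from -0.26 to -0.12 for Rcan1, from 1.94 to 2.38 for Rcan2 and from -1.92 to 1.00 for Rcan3, whose 15 intronic reads limit it. Ratios with a pseudocount were taken from the mean FPKM, without the authors' normalization, which also moves them. A pseudocount that is large beside the level shrinks a ratio by its construction. For Rcan2 exons the authors' -1.34 became -1.38, -1.28 and -0.74 at 0.01, 0.1 and 1 FPKM. For Rcan3 exons -0.63 became -0.20 at 1 FPKM. For Rcan2 introns 2.17 became 1.01, 0.19 and 0.021 at 0.01, 0.1 and 1 FPKM. Of the 6 list members called in exons, 3 had a mean of at least 2 FPKM and 2 were at least 1.5-fold different; the 1 called in introns is below 0.5 FPKM there, which leaves 0 at minimum means of 0.5 and 2 FPKM. No paired analysis was possible because the recovered library totals cannot be tied to pool numbers.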
